A study of Mus musculus with 12 samples.

Results

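Helper T cell fates are set by a small group of transcription factors, and 9 of them were followed here through the response of activated mouse CD4+ T cells to interleukin-12 (IL-12): Tbx21, Eomes, Hlx, Runx3, Gata3, Maf, Foxp3, Bcl6 and Prdm1. They were taken by gene symbol, with earlier results of these data known, and are 9 of 19752 genes with a usable probe set. Each of the 9 has exactly 1 probe set. The study used 12 Affymetrix Mouse Gene 1.0 ST arrays, whose probe sets, spread along each transcript, give 1 intensity apiece. Cells of all 4 groups were CD4+ T cells of spleens from male C57BL/6 mice aged 6 weeks, enriched by removing other cells (EasySep negative selection), and had been stimulated through CD3 and CD28 by beads for 48 h. IL-12 was then added at 100 U/ml for 2 h on 5 arrays and for 8 h on 4 arrays. Another 2 arrays hold cells left untreated for 2 h, and 1 array is labelled as the baseline, with no culture time. No untreated culture at 8 h is analysed here, so in the comparison of 8 h of IL-12 with untreated cells the cytokine and the later time cannot be told apart. Separate mice or cultures are not named for the samples of any group, so p-values reflect only the scatter among these samples, a scatter that may be technical.

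Naive CD4+ T cells that are activated take on 1 of several fates according to the cytokines around them. IL-12 from antigen-presenting cells acts through its receptor and the factor STAT4 and drives the type 1 (Th1) fate, known for interferon-gamma; interleukin-4 acting through STAT6 drives the type 2 (Th2) fate. T-bet, the product of Tbx21, and Gata3 are the master regulators of Th1 and Th2 cells and restrain each other, Foxp3 maintains regulatory T cells, and Bcl6 and Blimp-1, the product of Prdm1, repress each other in follicular helper and effector cells.

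Promoter windows of the members are shown first because STAT proteins, the factors that IL-12 activates, bind an inverted repeat that can be searched for by its letters. RefSeq windows on GRCm38.p6, reaching from 250 bases before to 50 bases after a start site, were available for 8 of the 9 members, 11 windows in all; Maf had no entry. The motif TTCNNNGAA reads the same on both strands and was found in 3 of the 11 windows, of Bcl6 and Foxp3, against 8.3% of all 32851 windows of this length. The upstream Bcl6 start, not printed, holds 1 match (TTCTCAGAA, 118 bases before the start). A window of a second Bcl6 start, inside the gene's annotated span, at chr16:23981234-23981533 on the minus strand, holds 3 matches, which 0.0335% of all windows reach or exceed. The second Foxp3 window, at chrX:7580233-7580532 on the plus strand, holds 1 match. The Tbx21 window, at chr11:97115282-97115581 on the minus strand, is printed as the window of the main Th1 regulator and holds none. Sequences run 5′ to 3′ and capitals mark the matches.
Tbx21: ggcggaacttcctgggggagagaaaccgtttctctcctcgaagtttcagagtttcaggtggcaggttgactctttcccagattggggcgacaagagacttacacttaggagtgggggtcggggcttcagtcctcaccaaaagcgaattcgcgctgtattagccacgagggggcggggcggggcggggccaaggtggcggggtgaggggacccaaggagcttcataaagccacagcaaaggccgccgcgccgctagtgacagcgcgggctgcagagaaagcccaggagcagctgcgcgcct
Bcl6: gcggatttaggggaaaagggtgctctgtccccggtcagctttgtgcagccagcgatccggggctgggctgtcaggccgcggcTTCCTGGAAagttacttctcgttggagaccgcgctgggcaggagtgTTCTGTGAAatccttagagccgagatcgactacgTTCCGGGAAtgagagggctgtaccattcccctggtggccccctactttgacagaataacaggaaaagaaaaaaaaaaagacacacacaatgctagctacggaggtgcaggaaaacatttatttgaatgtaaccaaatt
Foxp3: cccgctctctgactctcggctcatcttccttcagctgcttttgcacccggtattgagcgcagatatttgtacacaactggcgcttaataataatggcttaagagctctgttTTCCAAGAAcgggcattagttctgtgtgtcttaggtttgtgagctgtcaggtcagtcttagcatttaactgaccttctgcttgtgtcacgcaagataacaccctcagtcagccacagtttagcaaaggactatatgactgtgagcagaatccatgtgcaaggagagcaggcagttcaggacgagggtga
The Bcl6 matches lie 168, 122 and 88 bases before its start and the Foxp3 match 139 bases before. A match describes these letters and is no binding site, and its absence from a window says nothing about binding elsewhere.

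The titles number the arrays, and no label says what a number means. IL-12 arrays carry the numbers 2 to 4 (3 at 2 h and 2 at 8 h) or 5 and 6 (2 at each time), untreated arrays 7 and 8, and the baseline array 5. The 2 runs of numbers, 2 to 4 and 5 to 8, were treated as batches. Over 19752 genes, 24.3% differed between the runs after allowing for group. T cell markers (11 measured) averaged 11.69 to 11.89 on the log2 scale on every array, and Cd4 and Cd3e lay at the 97.3 and 99.2 percentile of genes, against the 46.4 percentile for Cd8a and the 69.2 percentile for Cd8b1. Markers of some other cells moved with the run, while the list means of 9 dendritic cell, 9 natural killer cell and 8 neutrophil markers overlapped between the runs. Some listed genes were among the highest of all genes, so a list mean need not follow its cell type. They include Ccr7 (dendritic list, 99.2 percentile), Xbp1 (plasma cell, 98.3), Ctsb (macrophage, 94.1) and Gzma (natural killer, 90.2). The mean of 14 B and plasma cell markers was 7.29 to 7.46 in numbers 2 to 4, 7.09 to 7.23 in numbers 5 to 8 and 7.49 on the baseline array, with 8 of 14 higher and 0 lower in numbers 2 to 4. The mean of 18 macrophage markers was 6.63 to 6.72 in numbers 2 to 4, 6.91 to 7.12 in numbers 5 to 8 and 6.84 on the baseline array, with 1 higher and 9 lower. The part of these shifts in the results below was not tested. No value here tells fewer cells of a type from less RNA per cell.

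Tbx21, the Th1 master regulator, rose by 8 h of IL-12. Its log2 intensity was 11.36 and 11.20 on the untreated arrays and 11.54 on the baseline array. After 2 h of IL-12 it was 12.34, 12.27 and 12.22 on arrays 2, 3 and 4, and 11.93 and 11.66 on arrays 5 and 6. After 8 h it was 12.03 and 12.05 on arrays 2 and 3, and 11.65 and 11.81 on arrays 5 and 6. Every IL-12 array lay above both untreated arrays, and arrays numbered 2 to 4 lay above those numbered 5 and 6 at the same time. The share of all genes separated in this way from the 2 untreated arrays was not computed, here or for the members below. Hlx, which had no called response, was also separated from them at 8 h. In the additive fit, which holds 4 group means plus a run effect and gives every value below unless another fit is named, Tbx21 was 1.32-fold higher at 8 h than in untreated cells (log2 0.40 ± 0.10, SE; limma adjusted p = 0.0406). At 2 h the difference was larger, 1.47-fold, but missed the threshold of 0.05 over all genes (log2 0.56 ± 0.10; 95% interval 0.35 to 0.77; adjusted p = 0.0705). With the title number as a random replicate block it passed (adjusted p = 0.0461), but the correlation estimated for that block was negative (-0.136), here and for every value given with the random replicate block. With the run as a random block in place of the run term, the 8 h call was lost (0.47, adjusted p = 0.0722). The call at 8 h was lost whenever any array other than 2 h array 2, 2 h array 6 or the baseline array was left out, with log2 values from 0.32 to 0.49 over the 12 omissions, and the 2 h difference passed without 2 h array 6 (0.66, adjusted p = 0.0167).

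Eomes, a T-box relative of T-bet known for cytotoxic and memory T cells, was lower on every IL-12 array than on both untreated arrays, without a call at 2 h. Untreated cells gave 8.77 and 8.90, and the baseline array 8.10. Arrays 2 to 6 gave 8.16, 8.35, 8.26, 8.29 and 8.28 after 2 h of IL-12. After 8 h, arrays 2 and 3 gave 7.37 and 7.59 while arrays 5 and 6 gave 8.19 and 8.52. Every IL-12 array lay below both untreated arrays, and the 8 h arrays lay below the 2 h arrays of the same run in numbers 2 to 4 but not in numbers 5 to 8. In a second fit, added after seeing the data, that gives each group in each run its own mean, Eomes fell by 0.77 ± 0.11 from 2 h to 8 h in numbers 2 to 4 (adjusted p = 0.00028) and differed by 0.07 in numbers 5 to 8. The difference between those changes was itself called (log2 -0.84 ± 0.16, adjusted p = 0.0159). Below, values within 1 run come from the second fit, with a spread taken from all arrays, unless a run is said to be taken alone. At 2 h Eomes differed from untreated cells by -0.55 ± 0.12 within numbers 5 to 8 (adjusted p = 0.170). With the random replicate block that difference was -0.32 (adjusted p = 0.967). Against untreated cells, Eomes at 8 h was lower by 0.48 ± 0.12 within numbers 5 to 8 (adjusted p = 0.0317), but without a call with numbers 5 to 8 alone. In the additive fit it was lower by 0.71 ± 0.19 and missed the threshold (adjusted p = 0.058, or 0.0428 with the random replicate block). The call of the difference between runs was lost without 2 h array 6, 8 h array 2 or 8 h array 6. From 2 h to 8 h the additive fit gave -0.39 ± 0.14 (adjusted p = 0.0823), which passed without 2 h array 6 (adjusted p = 0.0386) or 8 h array 6 (0.0093), and the 8 h difference from untreated cells passed without 8 h array 6 (-0.94, adjusted p = 0.0080). Cytotoxic cells also use Eomes and Runx3. Their markers moved with the run: Cd8b1 was 9.35 to 9.42 in untreated cells, 8.84 at baseline, 9.05 to 9.32 on IL-12 arrays 5 and 6 and 8.53 to 8.72 on arrays 2 to 4, while Cd8a stayed between 7.00 and 7.35. Of 9 natural killer cell markers 3 were higher and 5 lower in numbers 2 to 4. Klrd1 was 0.41 higher there, while Ncr1 was 5.53 to 5.97 there against 6.00 to 6.50 in the IL-12 and untreated arrays numbered 5 to 8. Some natural killer cell markers also moved with time under IL-12. Klrb1c was lower at 8 h than in untreated cells (-0.88, adjusted p = 0.00028) and than at 2 h (-0.67), while Ncr1 (0.38) and Gzma (0.42) rose from 2 h to 8 h. The part of these markers in the Eomes and Runx3 results was not tested.

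Hlx, a homeobox factor that works with T-bet in Th1 cells, showed no called response to IL-12. It was 7.11 and 7.02 in untreated cells and 7.38 at baseline, 7.70, 7.93, 7.67, 7.02 and 7.04 at 2 h and 7.77, 7.45, 7.29 and 7.15 at 8 h. Arrays numbered 2 to 4 were 0.58 ± 0.09 higher than those numbered 5 to 8 (adjusted p = 0.000387). Within numbers 5 to 8 both 8 h arrays also lay above both untreated arrays. With a mean for each group and run that difference was 0.15 ± 0.11, without a call (adjusted p = 0.602). In the additive fit the differences from untreated cells were 0.06 at both times. Runx3, which helps T-bet to open Ifng and to silence Il4, fell with time under IL-12. Untreated arrays gave 11.83 and 11.53 and the baseline array 11.27. At 2 h it was 11.33, 11.46, 11.34, 11.86 and 11.52, and at 8 h 11.03, 11.00, 11.42 and 11.49. Within each run both 8 h arrays lay below all 2 h arrays. With a mean for each group and run, Runx3 fell by 0.36 ± 0.11 in numbers 2 to 4 (adjusted p = 0.0437). In numbers 5 to 8 that fit gave -0.23 ± 0.12, without a call (adjusted p = 0.315). The fall from 2 h to 8 h was called (log2 -0.30 ± 0.08, adjusted p = 0.0226), but not with a fixed replicate block (-0.31, adjusted p = 0.0649) or with the run as a random block (-0.29, adjusted p = 0.0803), nor without 2 h array 3, 2 h array 5, 8 h array 2 or 8 h array 3.

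**Figure D1:**
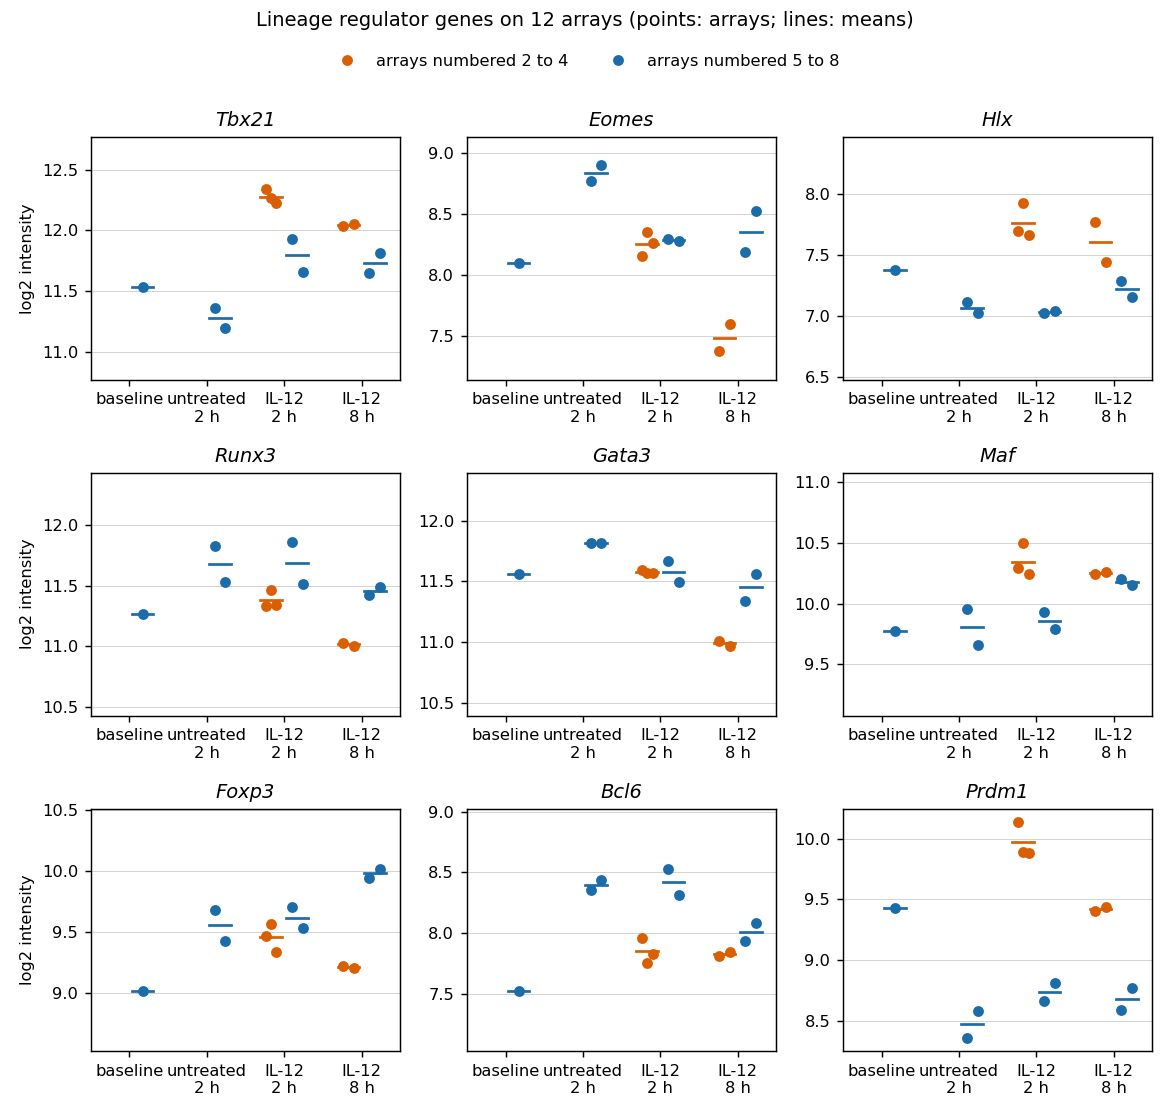
Log2 intensity of each member (vertical axis, its own scale per panel) on every array, by group (horizontal axis), with orange points for numbers 2 to 4, blue points for numbers 5 to 8 and lines for the means of each group and run. Every IL-12 array of Tbx21 lies above both untreated arrays, and the Eomes arrays numbered 2 and 3 at 8 h (7.37 and 7.59) lie below all others.

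Gata3, the Th2 master regulator, fell by 8 h of IL-12. It was 11.82 and 11.81 on the untreated arrays and 11.56 at baseline. At 2 h it was 11.59, 11.57, 11.57, 11.67 and 11.49, and at 8 h 11.01, 10.97, 11.34 and 11.56. The untreated arrays were the highest of all 12, and the lowest were the 8 h arrays 2 and 3. At 8 h Gata3 was 1.40-fold lower than in untreated cells (log2 -0.49 ± 0.12, adjusted p = 0.0391) and at 2 h the difference was -0.11 ± 0.12, without a call. With a mean for each group and run, the 8 h difference within numbers 5 to 8 was -0.37 ± 0.09 (adjusted p = 0.0382). It was not called with numbers 5 to 8 alone. From 2 h to 8 h the fit with a mean for each group and run gave -0.59 ± 0.08 in numbers 2 to 4 (adjusted p = 0.00038). In numbers 5 to 8 it gave -0.13, without a call. In the additive fit Gata3 fell by 0.38 ± 0.09 from 2 h to 8 h (adjusted p = 0.00994). With a fixed replicate block that fall missed the threshold (-0.36, adjusted p = 0.0893), and without 8 h array 3 it did too (adjusted p = 0.0571). The call against untreated cells was lost whenever any array other than 2 h array 6, 8 h array 6 or the baseline array was left out, with values from -0.63 to -0.44.

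Maf, an activator of Il4 in Th2 cells that is also used by Th17 and follicular helper cells, had no called response to IL-12. It was 9.96 and 9.66 in untreated cells and 9.77 at baseline. At 2 h it was 10.29, 10.50, 10.24, 9.93 and 9.79, and at 8 h 10.25, 10.26, 10.20 and 10.16. All 4 arrays at 8 h lay above both untreated arrays, with a difference of 0.37 within numbers 5 to 8 (adjusted p = 0.0851). Numbers 2 to 4 were higher by 0.30 ± 0.09 (adjusted p = 0.0298), a call lost without any 1 of 2 h arrays 2, 3, 4, 5 or 6.

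**Figure D2:**
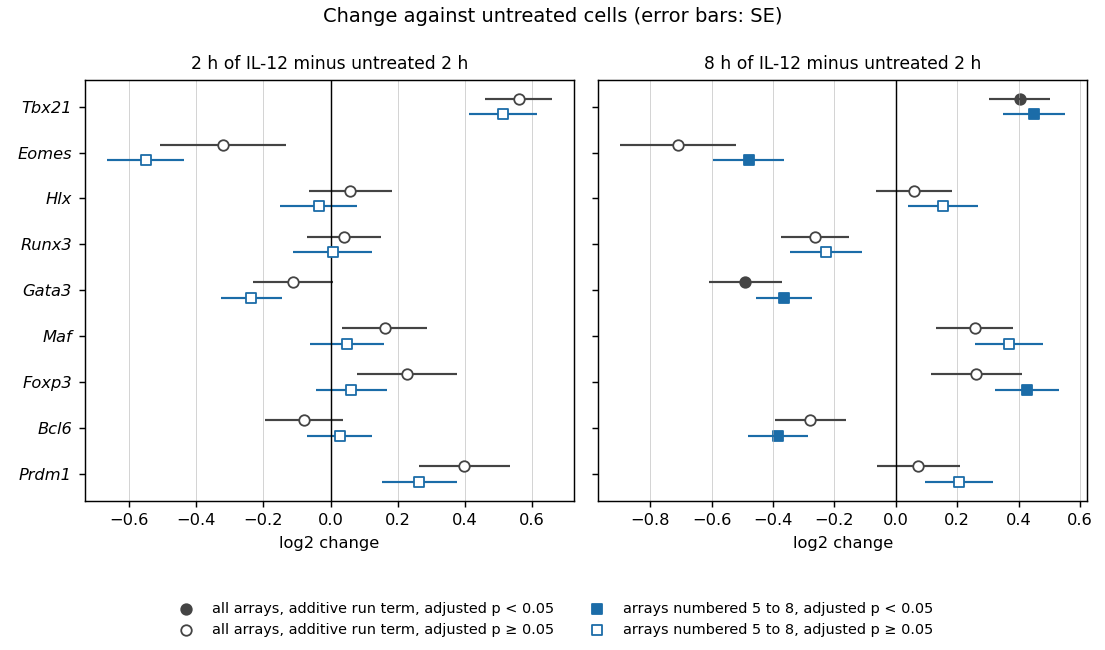
Log2 difference from untreated cells (horizontal axis) for each member at 2 h and 8 h of IL-12, with black circles for the additive fit, blue squares for numbers 5 to 8 with their own means, and bars of 1 SE. Filled symbols passed an adjusted p of 0.05, as Tbx21 (0.40) and Gata3 (-0.49) do at 8 h in the additive fit.

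Foxp3, the regulator of regulatory T cells, changed differently with time in the runs. It was 9.68 and 9.43 in untreated cells and 9.01 at baseline. At 2 h it was 9.47, 9.57, 9.33, 9.70 and 9.53. At 8 h, arrays 2 and 3 gave 9.22 and 9.20, below the 2 h arrays of their run, and arrays 5 and 6 gave 9.94 and 10.02, above those of theirs. The difference between the changes was called (log2 -0.61 ± 0.13, adjusted p = 0.0309), though not without any 1 of arrays 2, 3 or 6 at 2 h or at 8 h. Neither change was called in its own run (-0.24 in numbers 2 to 4, adjusted p = 0.137; 0.37 in numbers 5 to 8, adjusted p = 0.0604). With a mean for each group and run, Foxp3 at 8 h was 0.43 ± 0.10 above untreated cells within numbers 5 to 8 (adjusted p = 0.0356). It was not called with numbers 5 to 8 alone. The additive fit gave 0.26 for the same comparison without a call (adjusted p = 0.470).

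**Figure D3:**
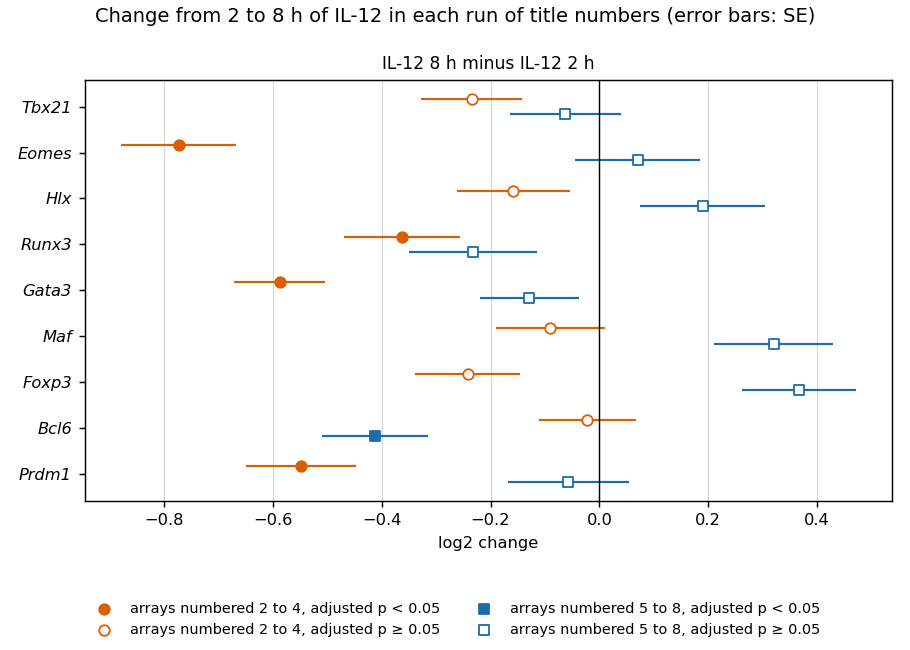
Log2 difference between 8 h and 2 h of IL-12 (horizontal axis) for each member, in numbers 2 to 4 and in numbers 5 to 8, each with bars of 1 SE from the fit with a mean for each group and run. Eomes (-0.77 and 0.07) and Foxp3 (-0.24 and 0.37) are the members whose difference between the runs was called.

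Bcl6, the repressor that directs follicular helper cells, and Prdm1, which encodes its antagonist Blimp-1, were the members called between the baseline array and the untreated cells. Bcl6 was 7.52 at baseline and 8.35 and 8.43 in untreated cells. It was 7.96, 7.75, 7.83, 8.53 and 8.31 at 2 h, and 7.81, 7.84, 7.94 and 8.08 at 8 h. All 4 of the 8 h arrays lay below both untreated arrays. With a mean for each group and run, Bcl6 at 8 h was lower than in untreated cells by 0.38 ± 0.10 within numbers 5 to 8 (adjusted p = 0.0419). It was lower than at 2 h by 0.41 ± 0.10 there (adjusted p = 0.0260), whereas in numbers 2 to 4 it differed by -0.02 between the times. With numbers 5 to 8 alone neither of the differences in that run was called. In the additive fit neither was called (-0.28, adjusted p = 0.262, and -0.20, adjusted p = 0.155).

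Prdm1 was 9.43 at baseline and 8.36 and 8.58 in untreated cells. At 2 h it was 10.14, 9.89 and 9.88 on arrays 2, 3 and 4 and 8.66 and 8.81 on arrays 5 and 6, and at 8 h it was 9.41 and 9.43 on arrays 2 and 3 and 8.59 and 8.77 on arrays 5 and 6. All IL-12 arrays numbered 2 to 4 lay above all IL-12 and untreated arrays numbered 5 to 8, with a run difference of 1.01 ± 0.10, or 2.01-fold (adjusted p = 1.1e-05). Prdm1 is also the regulator of plasma cells. Beside this difference, Ms4a1, a B cell marker, was 1.03 ± 0.07 higher in numbers 2 to 4 (adjusted p = 5.2e-07) and Xbp1, used by plasma cells, 0.31 higher (adjusted p = 0.0169), while the plasma cell markers Sdc1 and Jchain differed by 0.06 and 0.18 without a call; their part in the result was not tested. From 2 h to 8 h Prdm1 fell by 0.32 ± 0.10 in the additive fit (adjusted p = 0.0453), and by 0.55 ± 0.10 in numbers 2 to 4 (adjusted p = 0.00285), against -0.06 in numbers 5 to 8, not called. The call was lost with the replicate block (adjusted p = 0.137 fixed and 0.056 random), with the run as a random block (0.287), with an offset of 32 before log2 (0.0618), with every probe set tested on its own (0.0560) and in 7 of 12 omissions, of 2 h arrays 2, 3, 4 or 6 and 8 h arrays 2, 3 or 5.

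**Figure D4:**
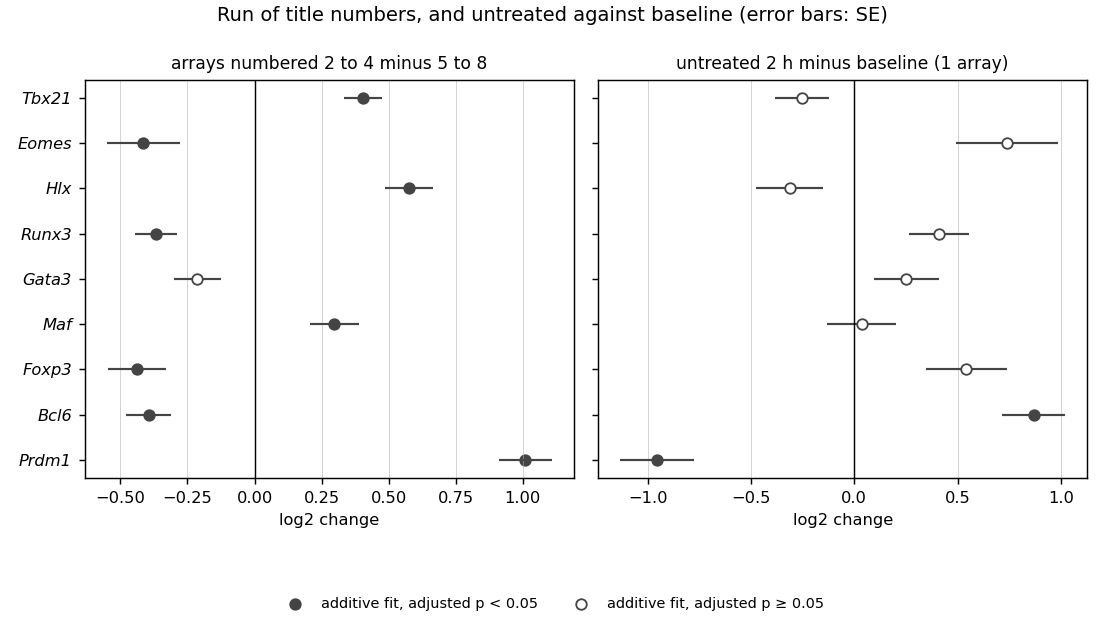
Log2 difference of numbers 2 to 4 from numbers 5 to 8, and of untreated cells from the baseline array (horizontal axes), for each member in the additive fit, with bars of 1 SE and filled symbols for an adjusted p under 0.05. Prdm1 has the largest run difference (1.01) and Bcl6 (0.87) and Prdm1 (-0.95) the called differences from baseline.

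Counted by comparison, 0 of 9 members were called at 2 h of IL-12 against untreated cells, where 14 of 19752 genes were called (0.0709% in either direction, 0.0709% higher and 0% lower). By limma's p before adjustment, 2 members and 971 genes passed 0.05. At 8 h against untreated cells 2 of 9 were called, 1 higher and 1 lower (3.16% of all genes, 1.04% higher and 2.13% lower). At 8 h against 2 h, 3 of 9 were called and all 3 were lower (12.6% of all genes, 6.27% higher and 6.36% lower). With the fit that gives each group and run its own mean, the counts within numbers 5 to 8 were 0 of 9 at 2 h against untreated (0.101%), 5 of 9 at 8 h against untreated (4.26%) and 1 of 9 at 8 h against 2 h (5.61%). Within numbers 2 to 4, 4 of 9 were called at 8 h against 2 h (11.7%). The 5 calls rest on 2 arrays a group and on a spread taken from all arrays; with the spread of numbers 5 to 8 alone, 0 were called. A difference between runs in the change with time was called for 2 of 9 members (1.96% of all genes). By limma's p before adjustment, 7 members and 2871 genes passed 0.05 for this term. Its median was -0.41 over the 9 members and -0.01 over all genes. Comparisons with untreated cells share both untreated arrays. The Tbx21 and Gata3 calls at 8 h were lost without the run term, where the differences were larger (Tbx21 0.61, adjusted p = 0.121; Gata3 -0.60, adjusted p = 0.0606). They were also lost with the baseline array pooled with untreated cells (0.32, adjusted p = 0.242, and -0.41, adjusted p = 0.197). From 2 h to 8 h Tbx21 was -0.16 ± 0.07 (adjusted p = 0.200) and passed without 2 h array 6 (-0.22, adjusted p = 0.0441). The Gata3 run-by-time term passed without 8 h array 5 (adjusted p = 0.0366).

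Between the runs themselves 8 of 9 members were called, against 24.3% of all genes: Prdm1, Hlx, Tbx21 and Maf were higher in numbers 2 to 4, and Foxp3 (-0.44 ± 0.11), Eomes (-0.41 ± 0.14), Bcl6 (-0.39 ± 0.08) and Runx3 (-0.37 ± 0.08) lower. Gata3 was lower by 0.21 ± 0.09 without a call (adjusted p = 0.0874), and passed without 2 h array 6 (adjusted p = 0.0187). The Eomes call was lost without 2 h array 2 or any 1 of the 8 h arrays, with an offset of 32 before log2 (adjusted p = 0.0673) and after a further quantile normalization (0.0793). Against the single baseline array, 2 of 9 members were called in untreated cells (10.2% of all genes): Bcl6 was 1.83-fold higher (log2 0.87 ± 0.15, adjusted p = 0.00221) and Prdm1 1.94-fold lower (log2 -0.95 ± 0.18, adjusted p = 0.00361). Within numbers 5 to 8 with their own means 4 of 9 were called, Bcl6, Eomes and Foxp3 higher (7.69% of all genes) and Prdm1 lower (5.09%). In the additive fit Runx3 was 0.41 higher (adjusted p = 0.0953) and passed without 2 h array 6 (0.0431) or untreated array 8 (0.0418), and Eomes, 0.74 higher (adjusted p = 0.0779), passed without 8 h array 2 (0.0427) or 6 (0.0250). Without the run term both differences were as large but neither was called (Bcl6 0.87, adjusted p = 0.172; Prdm1 -0.95, adjusted p = 0.499), and with the run as a random block the Prdm1 call was lost (-0.95, adjusted p = 0.120). Markers of other cells differed in the same comparison: of 14 B and plasma cell markers 0 were higher and 3 lower in untreated cells, with Ms4a1 at -1.44 and Cd22 at -0.81, and of 18 macrophage markers 2 were higher and 0 lower, Lyz2 (2.13) and Cd68 (0.74). Of 9 natural killer cell markers, 2 were higher and 1, Klrd1 (-0.85), lower. The part of these markers in the Bcl6 and Prdm1 results was not tested. The baseline array bears the number 5, yet its Prdm1, at 9.43, lies at the level of the 8 h arrays of numbers 2 to 4 (9.41 and 9.43) and above every other array numbered 5 to 8. Over all genes the baseline array correlated by 0.995 and 0.994 with 8 h arrays 2 and 3. Its correlations were 0.992 and 0.990 with 8 h arrays 5 and 6, and 0.989 with both untreated arrays. With 2 h arrays 2, 3 and 4 they were 0.993, 0.992 and 0.992, and with 2 h arrays 5 and 6 they were 0.989 and 0.988. The part of a run difference in the comparisons with the baseline array was not tested.

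Other factors of helper cell fate were called lower more often than higher at 8 h of IL-12, from a level in untreated cells that for some lay above the baseline array. Of 51 measured, 0 were called at 2 h against untreated cells (0.0709% of all genes) and 6 at 8 h, all lower (2.13% of all genes were lower), among them Egr2, a TCR-induced factor that restrains effector T cells (-1.34), Smad3, a TGF-beta effector (-0.59), Zeb2, a factor of terminal effector cells (-0.55), and Runx1 (-0.50). Against the baseline array, 15 of the 51 were higher and 3 lower in untreated cells (10.2% of all genes in either direction), among them Egr2 (1.93), Zeb2 (0.65) and Runx1 (0.53), all higher. Mean Egr2 was 9.90 on the baseline array, 11.83 in untreated cells and 10.08 at 8 h of IL-12. From 2 h to 8 h, 3 rose and 20 fell (6.27% and 6.36% of all genes), among them Egr2 (-1.30), Irf8 (-0.92), Runx1 (-0.52) and Zeb2 (-0.50). Within numbers 5 to 8, Egr2, Irf8, Zeb2 and Runx1 differed by -1.50, -0.76, -0.45 and -0.68, and within numbers 2 to 4 by -1.13, -1.05, -0.54 and -0.39. The median of the 51 was 0.02 at 2 h and -0.10 at 8 h against untreated cells, and -0.16 between the times, where the medians of all genes were -0.0032, -0.0094 and -0.0090. The median of the 9 members was 0.06, 0.06 and -0.20 in the same order.

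Genes that each fate's cells use moved as follows, in lists that share some genes and were drawn up with earlier results known; the medians that follow are at 8 h against untreated cells, where all genes had -0.0094, 1.04% of genes were called higher and 2.13% lower. At 2 h against untreated cells 14 of all genes were called (0.0709%), all of them higher. Rises and falls counted below are called changes. Of 15 Th1 genes, 4 rose at 2 h, Ifng (1.94), Il18r1 (0.99), Furin (0.87) and Il18rap (0.69). At 8 h against untreated cells 5 rose and 3 fell, with a list median of 0.13. The risers included Ifng (1.39) and Nkg7, of cytotoxic granules (0.65), and the falls were the death ligand Fasl (-1.22), the checkpoint receptor Havcr2 (-0.98) and Tnf (-0.87). Of 14 Th2 genes 0 were called at 2 h, and at 8 h 3 fell, Il4 (-1.24), the chemokine receptor Ccr8 (-1.12) and the ERK phosphatase Dusp6 (-0.99). The list median was -0.21. At 2 h against untreated cells the list median was 0.13 for the Th1 genes and 0.13 for the Th2 genes. Of 9 Th17 genes, 2 fell at 8 h, Il6ra (-0.73) and Ccr6 (-0.59), with a list median of -0.12. Of 19 regulatory T cell genes, 5 fell, among them Cd83 (-1.14), Lrrc32, which displays latent TGF-beta (-0.86), and Nt5e, an ectonucleotidase (-0.66), with a list median of -0.17. Of 17 follicular helper genes 5 fell, among them Cd40lg (-1.52), Cxcr5, the receptor that leads to the follicle (-0.72), and Pdcd1 (-0.57), with a list median of -0.35. No gene of the Th2, Th17, regulatory and follicular lists was called higher at 8 h against untreated cells, where 1.04% of all genes were. Lists of this size may hold 0 such calls at that share. Changes without a call were positive for 2 of 14, 1 of 9, 6 of 19 and 6 of 17 genes, in the same order. Many of the genes named as lower, but not all, had been higher in untreated cells than on the single baseline array. Cd40lg was higher by 2.60, Nt5e by 2.15, Havcr2 by 1.90, Cd83 by 1.84, Pdcd1 by 1.29 and Ccr6 by 1.14. Tnf was higher by 0.96, Dusp6 by 0.86, Il6ra by 0.81, Cxcr5 by 0.75 and Fasl by 0.68. Ccr8 and Lrrc32 were higher without a call in that comparison. Il4 had a lower mean in untreated cells than on the baseline array, also without a call. The part of these earlier differences in the falls at 8 h was not tested. From 2 h to 8 h, where 6.27% of all genes rose and 6.36% fell, falls outnumbered rises by 7 to 4 in the Th1 list, 9 to 1 in the Th2 list, 4 to 0 in the Th17 list, 10 to 1 in the regulatory list and 10 to 3 in the follicular list.

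Genes whose pattern was most like a member over the 12 arrays, after the run term was subtracted, are given as a description; all pairs are over the same arrays, whose groups differ in many genes. Without the subtraction the same pairs ranged from 0.153 (Hlx with Lims2) to 0.958, and were also low for Pcnx3 with Maf (0.270), Grm7 with Hlx (0.366), Rassf9 with Tbx21 (0.425) and Fbxo17 with Prdm1 (0.471). For Tbx21 these were Olfr1377 (r = 0.956), Rassf9 (0.899) and Morrbid (0.898). For Eomes they were Dusp10 (0.947), Bcl2l1 (0.942) and Ifngr2 (0.935), and Dusp10 was also near Gata3 (0.947), after Tulp3 (0.949) and Rcan3 (0.948). For Bcl6 they were Smad7 (0.970), Exoc6b (0.957) and Glcci1 (0.955), and for Foxp3 Csf2ra (0.959), Klhl42 (0.957) and Inf2 (0.956). For Runx3 they were Rnf25 (0.982), Tet3 (0.974) and Mllt1 (0.971). For Prdm1 they were Kif3a (0.950), Fbxo17 (0.945) and Timp3 (0.937). For Hlx they were Stk32b (0.964), Lims2 (0.943) and Grm7 (0.924), and for Maf Banp, Dennd2d and Pcnx3, each with r = 0.930. These are the highest r among many genes, and the r of other genes is not given for comparison. Some partners varied little over the arrays after the subtraction. Their log2 ranges went from 0.26 (Grm7) to 1.31 (Timp3), with 0.28 for Rassf9, 0.28 for Lims2 and 0.35 for Olfr1377.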

How the data were processed

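RNA of 12 samples was measured on single-channel arrays. The authors deposited linear intensity values for 24922 probe sets; per the submitters' processing notes they were made with RMA and Affymetrix Power Tools, with versions and genome build not given in the sources used here. All value columns matched a sample title (0 unmapped). Intensities were log2-transformed and not normalized again. The platform annotation gave 1 symbol to 21425 probe sets, several to 1399 and none to 2098; where a gene had several probe sets (921 genes) the one with the highest mean was kept, leaving 19752 genes, with no filter on dim genes. Median intensity was 161 to 167 per array, and the small number of arrays limits precision.

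limma 3.58.1 (R 4.3.3) was fitted to all 12 arrays with a mean for each of 4 groups and a run-of-numbers effect (7 residual and 6.84 prior degrees of freedom). Tests were two-sided, and calls needed a Benjamini-Hochberg adjusted p, over all genes, of under 0.05. The run-by-time term was fitted to the 9 IL-12 arrays. A fit with a mean for each group and run, and one of numbers 5 to 8 without the baseline array, were chosen after seeing the data. Scripts were tested on simulated data.

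The members, gene lists and tests were chosen with earlier results of these data known. Named genes are the 9 members, up to 4 called genes of each list by smallest p, and the 3 genes most correlated with each member. Arrays of the same number at 2 h and 8 h correlated by 0.300 to 0.519 in their deviations from group means. These values passed the limit of 0.1 for treating numbers as pairs. The main fit held no replicate block, and only the replicate-block alternatives took the numbers to pair samples. Other arrays of the same run correlated by 0.407 to 0.501, and with the run also removed same-number values were -0.264 to 0.0255. A pairing could therefore not be told apart from the run. Alternatives covered the run term, arrays, replicate block, probe-set choice, normalization, offset, filter, prior and omission of each array. An alignment of T-box proteins was not run.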

Additional observations from a re-analysis of the deposited data

Results flagged for a closer look

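The change from 2 h to 8 h of IL-12 differed between the number runs for 2 members, by the run-by-time term of limma on the 9 IL-12 arrays. For Eomes the difference of the changes, numbers 2 to 4 minus numbers 5 to 8, was -0.84 ± 0.16 on the log2 scale (adjusted p = 0.0159), and for Foxp3 it was -0.61 ± 0.13 (adjusted p = 0.0309). The meaning of the title numbers is not given in the sources used here, and the cause of these differences was not tested.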

How the results depend on the processing

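Counts of called members changed with the treatment of the run, the replicate block, the baseline array and the omission of single arrays. Without the run term 0 were called at 8 h against untreated cells, between the IL-12 times and against the baseline; with the run as a random block the counts were 1, 1 and 1; with numbers 5 to 8 alone 0, 0 and 4; and with the baseline array pooled with untreated cells 0 and 1 for the first pair. Numbers 5 to 8 without the baseline array gave 0 in both. A mean for each group and run gave 5, 1 (numbers 5 to 8) and 4, and numbers 2 to 4 alone gave 5 between the times. The fixed replicate block gave 0 between the times, and the random replicate block or a trended robust prior gave 1 (Tbx21) at 2 h against untreated cells; the random block also raised the 8 h count to 3. With any 1 array left out the counts were 0 to 1 at 2 h, 0 to 2 at 8 h against untreated cells, 0 to 4 between the times, 2 to 3 against baseline, 6 to 8 between the runs and 0 to 3 for the run-by-time term. Over 1233 alternatives for single members, 1120 kept their side of the threshold, among them 46 uncalled values that changed sign, while 88 lost a call, 25 gained one and 0 called values reversed. The cause of these changes was not tested. The 2 untreated arrays and 1 baseline array limit the precision of every comparison with them.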
